A study of Amaranthus hybridus and Amaranthus hypochondriacus with 18 samples.

Results

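The expression of ABCB14, ABCB13 and ABCB1, which encode transporters of the B subfamily of ATP-binding cassette (ABC) proteins, was followed in leaves of the cultivated grain amaranth Amaranthus hypochondriacus under water deficit, under salt stress and in control plants. These are 3 of the 30946 assembled transcripts counted for this species, and 3 of 61101 when the transcripts of the wild species A. hybridus, which the series also covers, are added. They were picked by identifier, AhypoNutrisol_DN9061_c0_g1_i1 for ABCB14, AhypoNutrisol_DN1230_c0_g1_i1 for ABCB13 and AhypoNutrisol_DN8314_c1_g1_i1 for ABCB1, and carry the names of the Arabidopsis thaliana proteins that the study assigned to them. All 3 passed the filter on low counts. The study listed them in groups of transcripts clustered on expression in these same libraries, so the direction of their changes is not independent of that choice. The paper places genes it names ABC14 and ABC13 in a cluster described as high in A. hypochondriacus control plants and raised further by salt. That description was read from expression scaled gene by gene over orthologs of A. hybridus and A. hypochondriacus. Here, with levels compared within A. hypochondriacus alone, ABCB14 and ABCB13 were 2.66-fold and 2.93-fold lower under salt than in control. Their direction is opposite to that description for salt, although the scales are not the same. The reason for this difference was not tested. The paper also describes a further group, high in A. hypochondriacus under both stresses, as enriched in ABC transporters. Its text does not name ABCB1 there. The assembly was made from RNA without a genome, and no genome position is given for these transcripts here.

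The A. hypochondriacus plants, cv. Nutrisol and labelled wild type, were 1 month old in a greenhouse when treatment began. Water-deficit plants had no irrigation for 14 days. Salt-stressed plants received 100 ml of NaCl solution daily, at 0.15 M for 7 days, 0.3 M for 4 days and 0.5 M for 3 days, and control plants were watered. Mature leaves that showed no senescence were sampled as 3 biological replicates per group, and each of the 9 libraries pooled leaves of 3 plants.

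ABC transporters use the energy of ATP to move substrates across membranes, and plant ABCB proteins sit mainly in the plasma membrane. In Arabidopsis, ABCB1 exports auxin from cells and has also been described as a brassinosteroid exporter, which links it to the growth of shoots and leaves. ABCB14 of Arabidopsis imports malate into guard cells, the pairs of cells that open and close a stoma, and modulates stomatal closure, while its close relative ABCB13 has been linked to auxin transport. These roles come from Arabidopsis and were not measured in amaranth.

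Libraries held 10.9 to 15.9 M counts (M, mega) under water deficit, 17.2 to 20.5 M under salt and 14.6 to 17.2 M in control. The 20 most abundant transcripts took between 92.7% and 97.1% of them, so that 0.320 to 1.5 M counts per library were left for all other transcripts. Levels are given as CPM, the counts relative to a library size of 1 M, scaled with the TMM (trimmed mean of M values) factors of edgeR, and 1 count was worth between 0.0271 CPM (salt library 2) and 0.136 CPM (water deficit library 2). All 6 leaf mesophyll markers, subunits of Rubisco, of the light-harvesting complexes and of photosystem I, had counts in every library. Their summed level was 20.8 to 28.0 CPM under water deficit, 47.5 to 71.2 CPM under salt and 188 to 267 CPM in control. By the rule given below, all 6 fell under each stress, or 3 of 6 under salt with library totals as the only scaling. Of all tested transcripts, 6.95% fell under water deficit and 6.61% under salt. The paper found light-harvesting transcripts high in this species in these same libraries. These decreases are therefore not independent evidence. A pair of virus-annotated transcripts reached a summed 19.1 CPM in salt library 2 and 56.5 CPM in salt library 3, against 0.0457 CPM in salt library 1 and no count in the other 6 libraries. The part of either pattern in the results below was not tested.

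Under water deficit and under salt, ABCB14 and ABCB13 fell, by 2.66-fold to 3.40-fold, whereas ABCB1 was higher than in control in every stressed library, with TMM scaling by a smaller step. The same limits on FDR (the p-value adjusted by Benjamini-Hochberg over all 12429 tested transcripts) and log2FC (the log2 fold change) were used throughout, and a transcript counted as changed when its FDR was under 0.01 and its log2FC beyond 1 in either direction, in the quasi-likelihood test of edgeR. By this rule ABCB14 and ABCB13, 2 of the 3 transcripts, fell under each stress and ABCB1 passed in neither comparison. Among all tested transcripts 9.7% changed under water deficit (2.75% upwards and 6.95% downwards) and 10.1% under salt (3.53% upwards and 6.61% downwards). The median log2FC of the 3 transcripts was -1.54 under water deficit and -1.41 under salt, beside 0.01 and -0.003 over all tested transcripts. Both stresses were compared with the same 3 control libraries. With library totals as the only scaling the median of all tested transcripts moved by 0.38 for water deficit and 0.77 for salt, the direction of all 3 transcripts was kept, and ABCB14 and ABCB13 no longer passed. ABCB1 then had a log2FC of 1.25 (FDR 0.0476) for water deficit and 1.36 (FDR 0.0146) for salt by edgeR, and it did not pass. Its step was then the largest of the 3 under salt. For water deficit it lay in size between those of ABCB14 (-1.12) and ABCB13 (-1.38). In leaf RNA of this kind, fewer cells of a type and less RNA of the gene per cell cannot be told apart.

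**Figure D1:**
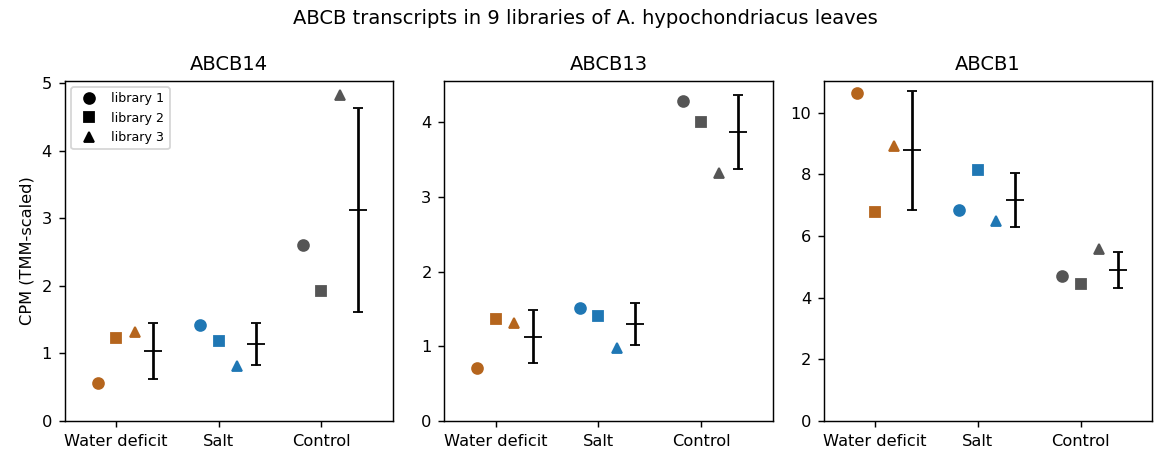
Level of ABCB14, ABCB13 and ABCB1 (CPM, TMM-scaled, linear axes from 0) in each library of water deficit, salt and control, with a marker shape per library number and, to the right of each group, its mean and SD (n = 3). The highest stressed library stood at 1.42 CPM for ABCB14 and 1.51 CPM for ABCB13, below the lowest control libraries at 1.93 and 3.32 CPM, whereas the lowest stressed library of ABCB1 stood at 6.48 CPM, above the highest control library at 5.57 CPM.

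ABCB14, the relative of the guard-cell malate importer, had 0.556, 1.22 and 1.31 CPM in water deficit libraries 1, 2 and 3, from 7, 9 and 30 counts. It had 1.42, 1.19 and 0.810 CPM in salt libraries 1, 2 and 3, from 31, 44 and 15 counts. Control libraries 1, 2 and 3 had 2.61, 1.93 and 4.82 CPM, from 31, 27 and 58 counts. All 6 stressed libraries were below all 3 control libraries, and control library 3 stood well above the other two. Of all tested transcripts, 18.1% were likewise lower without overlap under water deficit and 20.6% under salt. The counts were low, and the 7 counts of water deficit library 1 have an exact 95% Poisson interval of 2.81 to 14.4, which covers counting error only.

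The mean of ABCB14 was 1.03 ± 0.41 CPM under water deficit and 3.12 ± 1.51 CPM in control (SD, n = 3 each). The log2FC was -1.54 (SE 0.36, 95% interval -2.31 to -0.77), a 2.91-fold lower level, with an FDR of 0.00613 in the quasi-likelihood test of edgeR. Under salt the mean was 1.14 ± 0.31 CPM, with a log2FC of -1.41 (SE 0.32, interval -2.10 to -0.73), a 2.66-fold lower level, and an FDR of 0.00457 in the same test. Each call was lost when some libraries were left out 1 at a time, in some cases with a log2FC larger in size than from all libraries. For water deficit the FDR was 0.0117 without control library 1 (log2FC -1.64), 0.0543 without control library 3 (-1.08), 0.0329 without water deficit library 1 (-1.24) and 0.0147 without water deficit library 3 (-1.91) in edgeR's test. For salt it was 0.0103 without control library 1 (-1.52), 0.0614 without control library 3 (-0.95), 0.0228 without salt library 2 (-1.44) and 0.0226 without salt library 3 (-1.27).

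ABCB13 gave the steadier decrease. In water deficit libraries 1, 2 and 3 it had 0.715, 1.36 and 1.31 CPM, from 9, 10 and 30 counts. Salt libraries 1, 2 and 3 had 1.51, 1.41 and 0.972 CPM, from 33, 52 and 18 counts. In control libraries 1, 2 and 3 the level was 4.29, 4.00 and 3.32 CPM, from 51, 56 and 40 counts. The stressed and control groups did not overlap, and the lowest control library was more than double the highest stressed one, 3.32 against 1.51 CPM. As for ABCB14, the lowest water deficit value was in library 1 and the lowest salt value in library 3.

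ABCB13 averaged 1.13 ± 0.36 CPM under water deficit and 3.87 ± 0.50 CPM in control (SD, n = 3 each), a log2FC of -1.77 (SE 0.26, interval -2.31 to -1.22) and a 3.40-fold lower level, with an FDR of 0.000101 in edgeR's test. Under salt it averaged 1.30 ± 0.28 CPM, a log2FC of -1.55 (SE 0.23, interval -2.03 to -1.07) and a 2.93-fold lower level, with an FDR of 8.82e-05 in edgeR's test. Without any 1 of the 6 libraries of a comparison the call held, with a log2FC between -1.99 and -1.52 for water deficit and between -1.66 and -1.43 for salt.

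ABCB1, the relative of the Arabidopsis auxin exporter, moved the other way. It had 10.6, 6.79 and 8.93 CPM in water deficit libraries 1, 2 and 3, from 134, 50 and 204 counts. In salt libraries 1, 2 and 3 the level was 6.85, 8.14 and 6.48 CPM, from 150, 301 and 120 counts. Control libraries 1, 2 and 3 had 4.71, 4.43 and 5.57 CPM, from 56, 62 and 67 counts. Every stressed library was above every control library, as held for 14% of all tested transcripts under water deficit and 18.4% under salt. Water deficit library 1, the lowest of its group for ABCB14 and ABCB13, was the highest for ABCB1.

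The mean of ABCB1 was 8.79 ± 1.93 CPM under water deficit and 4.90 ± 0.59 CPM in control (SD, n = 3 each). The log2FC of 0.86 (SE 0.20, interval 0.44 to 1.28) corresponded to a 1.81-fold higher level with an FDR of 0.00525 in edgeR's test, so that the limit on FDR was met and the limit on fold was not. Without water deficit library 2 both limits were met, with a log2FC of 1.01 and an FDR of 0.00047 in the same test. Under salt the mean was 7.16 ± 0.87 CPM and the log2FC 0.55 (SE 0.19, interval 0.14 to 0.96), a 1.47-fold difference that did not pass the test with an FDR of 0.0522 by edgeR. Under an FDR limit of 0.05 neither comparison called ABCB1.

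**Figure D2:**
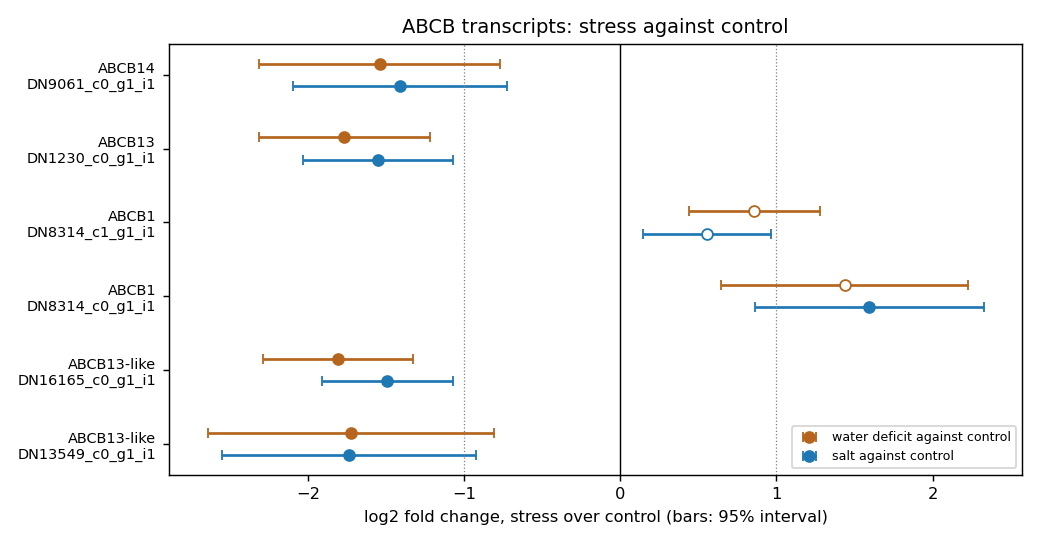
log2FC of stress over control (x axis) for the 3 transcripts and the other 3 described as ABCB, each with its 95% interval from edgeR, in brown for water deficit and in blue for salt, filled where the change passed both limits and open where it did not. Dotted lines mark a log2FC of -1 and 1. Transcripts of ABCB14, ABCB13 and ABCB13-like type lay between -1.81 and -1.41 in both stresses, and the ABCB1 transcripts between 0.55 and 1.59.

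Set against each other, water deficit and salt could not be separated for any of the 3 transcripts. ABCB14 had a log2FC of -0.13 for water deficit over salt (interval -0.94 to 0.68) with an FDR of 0.873 by edgeR, ABCB13 had -0.22 (interval -0.80 to 0.37) with an FDR of 0.67, and ABCB1 had 0.30 (interval -0.09 to 0.70) with an FDR of 0.315. None of the 3 passed, where 4.1% of all tested transcripts changed between the stresses. An unadjusted p under 0.05 in edgeR's test was found for 0 of the 3, against 3340 of all 12429 tested transcripts. All 3 had overlapping groups, where the groups of 28.5% of all tested transcripts did not overlap. The interval of ABCB14 is the widest of the 3 and holds differences in both directions, so equal levels under both stresses are not shown.

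Because the 3 transcripts were counted in the same libraries, the ratio of their counts does not depend on how libraries are scaled. It was chosen after seeing the data, and it compares libraries, not the levels of the genes, whose lengths are not in hand. The number of ABCB1 counts per ABCB13 count was 14.9, 5 and 6.8 in water deficit libraries 1, 2 and 3. It was 4.55, 5.79 and 6.67 in the salt libraries, against 1.10, 1.11 and 1.68 in the control libraries. The balance between the transcripts therefore shifted in every stressed library, and water deficit library 1 stood furthest from control.

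On the log2 scale the ABCB1 to ABCB13 ratio was higher than in control by 2.65 under water deficit and by 2.14 under salt. For ABCB1 over ABCB14 the counts gave 5.56 to 19.1 under water deficit, 4.84 to 8 under salt and 1.16 to 2.3 in control. In each of these 4 comparisons the groups were fully separate, with a two-sided exact permutation p of 0.1, the smallest that 3 libraries against 3 allow, and 0.36 after Benjamini-Hochberg adjustment over the 18 ratio comparisons made. The design cannot reach a p of 0.05 in this way. In contrast, ABCB14 over ABCB13 was 0.778 to 1 under water deficit, 0.833 to 0.939 under salt and 0.482 to 1.45 in control, where the widest range was among the control libraries.

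**Figure D3:**
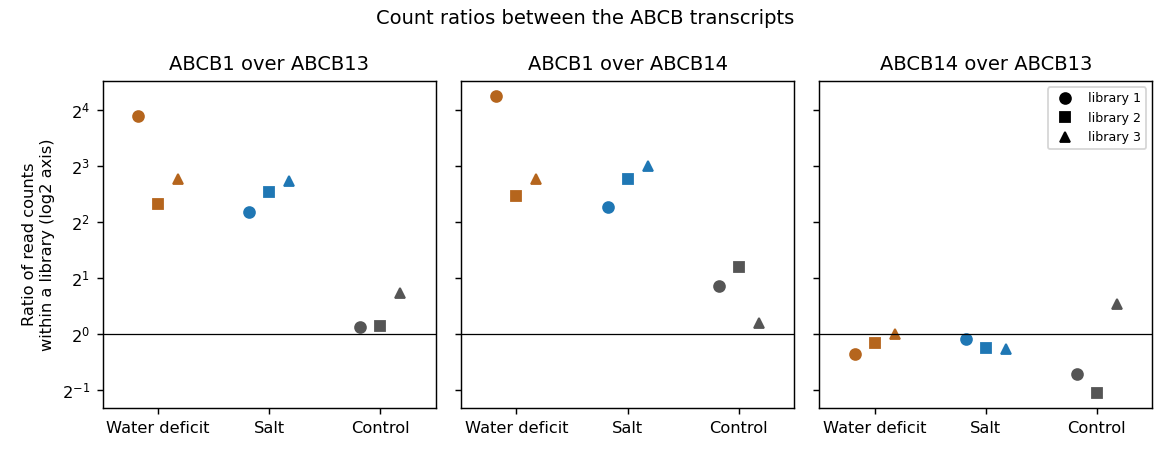
Ratio of read counts within each library (log2 axis) for ABCB1 over ABCB13, ABCB1 over ABCB14 and ABCB14 over ABCB13, in water deficit, salt and control, with a marker shape per library number. The first 2 ratios lay at or above 4.55 in all 6 stressed libraries and at or below 2.3 in the 3 control libraries, whereas the stressed libraries of the last lay within the range of the control libraries, 0.482 to 1.45.

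A second transcript of the same assembly cluster as ABCB1, DN8314_c0_g1_i1, was also described as ABC transporter B family member 1. DN8314_c0_g1_i1 had 2.38, 0.815 and 2.49 CPM in water deficit libraries 1, 2 and 3, from 30, 6 and 57 counts. In the salt libraries it had 1.60, 2.68 and 2.65 CPM, against 0.758, 0.643 and 0.914 CPM in the control libraries, where 9, 9 and 11 counts were found. It rose under salt, with a log2FC of 1.59 (SE 0.35) and an FDR of 0.0031 by edgeR. Under water deficit the log2FC was 1.44 (SE 0.37) with an FDR of 0.0115 in the same test, and library 2 lay within the control range. The salt call was lost without control library 1 (log2FC 1.58, FDR 0.0178), 2 (1.49, 0.0256) or 3 (1.73, 0.0122) and without salt library 2 (1.45, 0.0212) or 3 (1.5, 0.0135). The water deficit comparison passed without water deficit library 2 (1.68, FDR 0.000412), with RLE size factors (FDR 0.00998), with library totals (0.0063), with a CPM above 1 in 3 libraries (0.00917), without the 20 most abundant transcripts (0.00954), in both exact tests of edgeR (0.00523 and 0.00621) and at an FDR limit of 0.05.

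Whether the pair of DN8314 transcripts are parts of 1 gene or separate genes is not given. Counts hold uniquely mapped reads alone, and any read that fits both would be missing from both values. Counts of DN8314_c0_g1_i1 per count of ABCB1 were 0.12 to 0.279 under water deficit and 0.233 to 0.408 under salt, against 0.145 to 0.164 in control. When both were summed as 1 gene, a step chosen after seeing the data, the level was 13.0, 7.61 and 11.4 CPM under water deficit, 8.45, 10.8 and 9.13 CPM under salt, and 5.47, 5.08 and 6.48 CPM in control. The sum had a log2FC of 0.93 (FDR 0.00436 by edgeR) for water deficit and 0.74 (FDR 0.0162) for salt, so it passed both limits in neither.

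A pair of transcripts described as ABC transporter B family member 13-like fell together with ABCB13. Whether they and the ABCB13 transcript are parts of 1 gene or separate genes is not given. DN16165_c0_g1_i1 had 1.11, 1.77 and 1.31 CPM under water deficit, 1.28, 1.87 and 1.84 CPM under salt, and 4.29, 4.72 and 5.15 CPM in control. Its log2FC was -1.81 (SE 0.23, FDR 2.25e-05) for water deficit and -1.49 (SE 0.20, FDR 3.6e-05) for salt by edgeR. The call held without any 1 library and was lost with library totals as the only scaling, at -1.43 (FDR 0.0279) for water deficit and -0.71 (FDR 0.198) for salt. Its counts stayed close to those of ABCB13 within each library, at a ratio of 1 to 1.56 under water deficit, 0.848 to 1.89 under salt and 1 to 1.55 in control.

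DN13549_c0_g1_i1 had the fewest counts of the ABCB transcripts over the 9 libraries, with 2, 7 and 16 counts under water deficit, 17, 23 and 5 under salt and 30, 19 and 24 in control. These gave 0.159, 0.951 and 0.700 CPM under water deficit, 0.777, 0.622 and 0.270 CPM under salt, and 2.53, 1.36 and 1.99 CPM in control. Its log2FC was -1.73 (SE 0.43, FDR 0.00932) for water deficit and -1.74 (SE 0.39, FDR 0.00353) for salt by edgeR. The water deficit call sat at the limit and was lost without control library 1 (log2FC -1.51, FDR 0.0531), 2 (-1.92, 0.0134) or 3 (-1.70, 0.0354) and without water deficit library 1 (-1.30, 0.0401) or 3 (-2.05, 0.0315), and also without salt library 1 (-1.75, 0.0111) or 2 (-1.74, 0.0144), which share the fit. By edgeR the water deficit call was also lost in the fit of 6 libraries (FDR 0.014) and with a CPM above 1 in 3 libraries (0.0123). Thinned counts (0.0288) and leaving out the 20 most abundant transcripts (0.0108) lost it too. The salt call was lost without control library 1 (-1.53, 0.0328) or 3 (-1.71, 0.0197) and without salt library 2 (-1.83, 0.0177) or 3 (-1.50, 0.0152). In all, 2 of these 3 other ABCB transcripts fell and none rose under water deficit, and 2 fell and 1 rose under salt, where 2.75% of all tested transcripts rose and 6.95% fell under water deficit, and 3.53% rose and 6.61% fell under salt. The descriptions of these transcripts came from the study's lists, drawn from these same libraries, so these counts are not independent evidence. With library totals as the only scaling, 1 rose (DN8314_c0_g1_i1) and 0 fell under each stress. None of the 3 changed between water deficit and salt, where 4.1% of all tested transcripts did. None had an unadjusted p under 0.05 in edgeR's test, against 3340 of all 12429 tested transcripts.

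**Figure D4:**
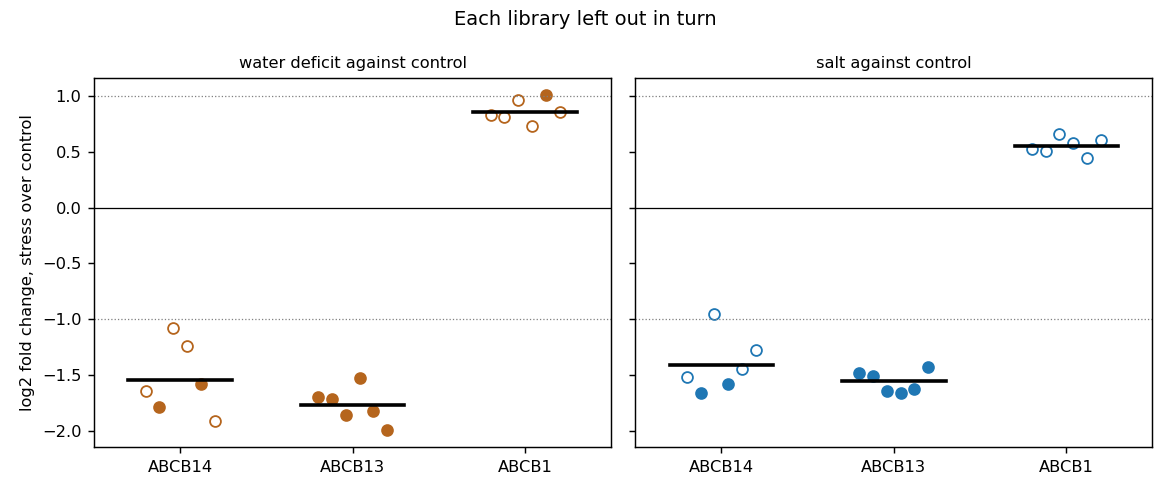
log2FC of stress over control (y axis) for ABCB14, ABCB13 and ABCB1 when each of the 6 libraries of a comparison was left out in turn, for water deficit (left) and salt (right), filled where both limits were met and open where not. Black lines give the value from all libraries and dotted lines a log2FC of -1 and 1. ABCB13 passed in 6 of 6 cases in both panels, ABCB14 in 2 of 6 in each, and ABCB1 in 1 of 6 for water deficit and 0 of 6 for salt.

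The transcripts most like each ABCB transcript were taken from 7780 with an average of at least 0 log2 CPM, by Pearson's r of log2 CPM over the 9 libraries, which share their scaling and their 3 groups. The r is a description of these libraries, and only transcripts with a description are named. The descriptions came from the study's lists, drawn from these same libraries, so transcripts that the study had called are favoured among those named. Closest to ABCB13 was a glucan endo-beta-glucosidase A6-type enzyme, DN16449_c0_g1_i1 (r = 0.985), of a family that cleaves beta-glucans. Next came alpha-L-arabinofuranosidase 1, DN1325_c0_g1_i1 (r = 0.974), an enzyme that removes arabinose from cell wall polymers, and a glycine-rich RNA-binding protein, DN8068_c0_g1_i1 (r = 0.973), with 1 undescribed transcript ranked above both. The arabinofuranosidase had 0.762 ± 0.257 CPM under water deficit, 0.913 ± 0.325 CPM under salt and 8.85 ± 0.84 CPM in control (SD, n = 3 each), a larger decrease than that of ABCB13, which is given here without a test of the difference.

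For ABCB14 the likeness was looser. The closest described transcripts were FAB1C, DN1803_c0_g1_i1 (r = 0.923), a lipid kinase that makes a phosphoinositide of endosomes and vacuoles, then UNE10, DN16772_c0_g1_i1 (r = 0.918), a transcription factor of the bHLH family, and nuclear fusion defective 4, DN2178_c0_g2_i1 (r = 0.914), with 3, 3 and 4 undescribed transcripts above them. FAB1C averaged 1.66 ± 0.98 CPM under water deficit, 2.23 ± 0.26 CPM under salt and 6.41 ± 1.25 CPM in control (SD, n = 3 each). UNE10 averaged 1.01 ± 0.26 CPM under water deficit, 1.15 ± 0.11 CPM under salt and 4.78 ± 1.05 CPM in control (SD, n = 3 each). Both fell under each stress, with FDRs between 3.65e-06 and 0.000402 by edgeR. They were picked for likeness to ABCB14 in these libraries, so these FDRs are not independent evidence.

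Closest to ABCB1 were DN7826_c0_g1_i1, described only as amino acid binding (r = 0.918), an MLO-like protein 8, DN5040_c0_g1_i1 (r = 0.915), of a membrane protein family known from powdery mildew susceptibility in barley, and a lysine-ketoglutarate reductase/saccharopine dehydrogenase, DN19721_c0_g1_i1 (r = 0.915), which starts lysine breakdown. Some 18 undescribed transcripts ranked above the first of them and 21 above the other two. The reductase ranged between 0.951 and 16.0 CPM under water deficit, 0.914 and 1.49 CPM under salt and 0.253 and 0.429 CPM in control. Its log2FC for water deficit was 4.71 (SE 0.69, FDR 9.77e-05 by edgeR), against 0.86 for ABCB1, a difference given without a test. The reductase was picked for likeness to ABCB1 in these libraries, so its FDR is not independent evidence either. Among the ABCB transcripts themselves, r was 0.874 between ABCB14 and ABCB13, -0.884 between ABCB13 and ABCB1, and -0.707 between ABCB14 and ABCB1.

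Other ABC transporters were read from a list of 11 transcripts, 9 of which passed the filter on low counts. The descriptions behind this list and the next 2 came mostly from the transcripts that the study called under salt in these libraries, so their counts under salt are not independent evidence. Nor are those under water deficit, which use the same 3 control libraries. Under water deficit 1 rose and 3 fell, with a median log2FC of -0.49, and under salt 2 rose and 7 fell, with a median of -1.52. Of all tested transcripts 2.75% rose and 6.95% fell under water deficit, and 3.53% rose and 6.61% fell under salt. An ABCC13 transcript, DN3379_c0_g1_i1, rose under both stresses, with a log2FC of 2.28 (FDR 0.000501) for water deficit and 1.80 (FDR 0.00322) for salt by edgeR. A white-brown-complex transporter of the ABCG type, DN12529_c0_g1_i1, fell under both, with a log2FC of -1.54 (FDR 0.00476) for water deficit and -2.15 (FDR 0.000184) for salt. An ABCC3-like transcript, DN20284_c0_g1_i1, fell under both too, with -1.92 (FDR 9.36e-05) and -1.57 (FDR 0.000133), and another, DN8894_c0_g1_i1, fell under salt with -1.56 (FDR 0.00308). The third that fell under water deficit, named after its values were seen, was the ABCC3-like DN5748_c0_g1_i1 (-1.43, FDR 2.02e-05), and the other that rose under salt was ABCI17, DN5087_c0_g1_i1 (1.52, FDR 0.00419). With library totals as the only scaling, 1 rose and 0 fell under water deficit and 2 rose and 0 fell under salt.

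Between the stresses 2 of these 9 changed, where 4.1% of all tested transcripts did, and 0 changed without salt library 1, salt library 2 or water deficit library 1. They are named here after their values were seen, as an ABCC14-like transcript, DN24670_c0_g1_i1 (log2FC 1.03 for water deficit over salt, FDR 0.00248 by edgeR), and ABCG22, DN6606_c0_g1_i1 (1.29, FDR 0.00191), whose Arabidopsis counterpart is known for limiting water loss through stomata. ABCG22 had a log2FC of -0.23 (FDR 0.514) for water deficit, where its sign turned with library totals (0.13), and fell under salt, with -1.52 (FDR 9.33e-05).

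**Figure D5:**
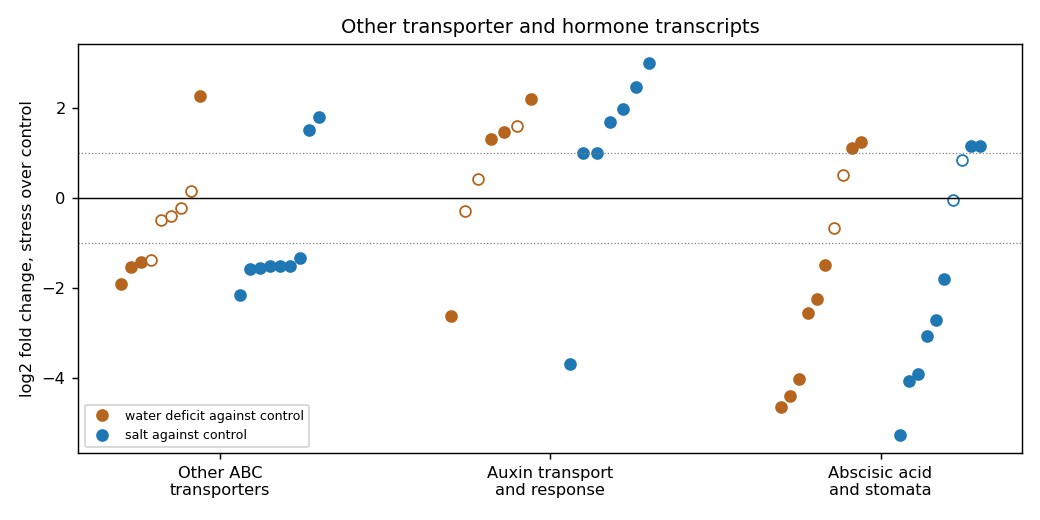
log2FC of stress over control (y axis) for each tested transcript of the other ABC transporters (9 transcripts), auxin transport and response (7) and abscisic acid and stomata (10), sorted within each column, in brown for water deficit and in blue for salt, filled where the change passed both limits. Dotted lines mark a log2FC of -1 and 1. The values ran from -1.92 to 2.28 under water deficit and from -2.15 to 1.80 under salt for other ABC transporters, and down to -4.66 and -5.27 for abscisic acid and stomata.

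Genes of auxin transport and response were read beside ABCB1. Of 7 transcripts, 3 rose and 1 fell under water deficit (median log2FC 1.30), and 6 rose and 1 fell under salt (median 1.68), where 2.75% and 3.53% of all tested transcripts rose under water deficit and salt and 6.95% and 6.61% fell. With library totals 2 rose and 1 fell under water deficit. The largest changes were in a CBL-interacting protein kinase 6-like transcript, DN23369_c0_g1_i1, which fell with a log2FC of -2.64 under water deficit (FDR 1.7e-05) and -3.69 under salt (FDR 3.04e-07) by edgeR. A second transcript of the same description, DN6944_c0_g1_i1, named after its values were seen, rose under salt with 1.00 (FDR 0.00039) and had 0.43 (FDR 0.107) for water deficit. An auxin-repressed protein, DN2440_c0_g2_i1, rose under salt with a log2FC of 3.01 (FDR 2.12e-05), and had 1.59 (FDR 0.0281) for water deficit. The dormancy/auxin associated proteins DN4100_c0_g2_i1 and DN6256_c0_g1_i1 rose under both, with a log2FC of 1.47 and 2.20 for water deficit and 2.47 and 1.99 for salt. Such genes are known as markers of dormant buds and growth arrest. A second auxin-repressed protein, DN8382_c2_g1_i1, named after its values were seen, was the remaining one to rise under water deficit (log2FC 1.30, FDR 9.84e-05 by edgeR). The list holds 1 auxin carrier, an auxin transporter-like protein 2 of the influx type, with a log2FC of -0.28 (FDR 0.569) for water deficit, which turned to 0.11 with library totals, and 1.00 (FDR 0.00856) for salt by edgeR.

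Genes of abscisic acid, the hormone of water stress, and of stomata were read beside ABCB14. Of 11 transcripts 10 were tested, and 2 rose and 6 fell under each stress, with a median log2FC of -1.87 under water deficit and -2.26 under salt. Of all tested transcripts 2.75% rose and 6.95% fell under water deficit, and 3.53% rose and 6.61% fell under salt. With library totals 1 rose and 5 fell under water deficit, and 3 rose and 5 fell under salt. The deepest decreases were in xanthoxin dehydrogenase transcripts, which act in abscisic acid synthesis. DN685_c0_g2_i1 had a log2FC of -4.66 under water deficit (FDR 1.65e-08) and -5.27 under salt (FDR 1.81e-09) by edgeR. For water deficit and salt, DN3444_c0_g1_i1 had -4.41 and -4.08 and DN22963_c0_g1_i1 had -4.03 and -3.91. DN6643_c0_g3_i1, described as zeaxanthin, chloroplastic, and taken here as zeaxanthin epoxidase of the same route, fell too, with -2.25 under water deficit (FDR 2.96e-06) and -3.07 under salt (FDR 1.04e-07).

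The transcripts of this list that rose are named after their values were seen. Under water deficit they were the protein phosphatases 2C ABI1 and PP2CA, which hold back abscisic acid signalling, with a log2FC of 1.23 (FDR 0.00145) and 1.12 (FDR 0.00293) by edgeR, and under salt ABI1 had 0.85 (FDR 0.0169) and PP2CA -0.04 (FDR 0.935), or 0.71 with library totals. Under salt the 2 that rose were an aspartic protease in guard cell 1-like transcript and an epidermal patterning factor-like protein 9, a promoter of stomatal development in Arabidopsis, each with a log2FC of 1.15 and FDRs of 0.000946 and 0.0093 by edgeR. Of these 4, PP2CA and the patterning factor changed between the stresses, with a log2FC of 1.15 (FDR 0.0041) and -1.81 (FDR 0.00191) for water deficit over salt.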

How the data were processed

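RNA of leaves was sequenced as single-end reads of 75 bases. The authors used Trimmomatic for trimming, Trinity for 1 assembly per species and CD-HIT (90% identity) to reduce it, mapped each library with Bowtie2 2.3.0 (version as in the submitters' notes), and deposited raw counts of uniquely mapped reads per transcript, without normalization. Strand use is not given in the sources used here, and antisense reads cannot be told apart. Groups come from the labels, where drought and salinity are named, and all per-sample columns were used.

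The 9 A. hypochondriacus libraries were fitted together (glmQLFit and glmQLFTest, edgeR 4.0.16, limma 3.58.1, R 4.3.3) with TMM factors, the default filterByExpr and 6 residual degrees of freedom. The standard error of a log2FC is its size over the root of F. The test was checked on simulated counts. The median tested transcript had 10 to 48 counts per library. The p-values measure the spread between these pooled libraries. Alternatives were the exact test of edgeR, DESeq2 1.42.0, a fit of 6 libraries, RLE factors, library totals, other filters and limits, thinned counts, the 20 most abundant transcripts left out, a replicate block and fits without 1 library. The ratios of counts and the summed DN8314 transcripts were added after seeing the data.

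Members and lists were chosen with earlier results of these data known. Named transcripts are the members, the other ABCB transcripts, those of a member's assembly cluster, up to 4 changed transcripts per list with the largest absolute log2FC under stress, and the 3 described transcripts most alike each member. Fold changes and p-values in the study's own tables, and the A. hybridus counts, were not used for tests. No sequence is shown, because none was in the sources used here.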

Additional observations from a re-analysis of the deposited data

How the results depend on the processing

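Direction against control was kept by all 3 transcripts under every alternative. With library totals as the only scaling, the median of all tested transcripts moved by 0.38 (water deficit) and 0.77 (salt), and ABCB14 had -1.12 and -0.61 and ABCB13 -1.38 and -0.77, none of which passed, with ABCB1 at 1.25 and 1.36, and no changed transcript of any list turned its sign. Relative to that shift ABCB14 was at -1.50 and -1.38, ABCB13 at -1.76 and -1.54, and ABCB1 at 0.86 and 0.59. The share of changed transcripts that were lower was then 48.5% and 15.9%, against 71.6% and 65.2% with TMM, and 80.4% against 57.5% for water deficit over salt. ABCB14 was also lost with thinned counts (-1.52 and -1.39) and, for water deficit, in the fit of 6 libraries (-1.48). At an absolute log2FC above 2, ABCB14 (-1.54 and -1.41) and ABCB13 (-1.77 and -1.55) were lost for that limit alone.

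Leaving out 1 library gave ABCB14 -1.91 to -1.08 for water deficit and -1.66 to -0.95 for salt, and ABCB1 0.73 to 1.01 for water deficit. For water deficit over salt the sign turned for ABCB14 (range -0.50 to 0.16, with 0.0052 without salt library 1), for ABCB13 (-0.44 to 0.020, and 0.13 with thinned counts) and for ABCB1 with library totals (-0.12). The cause was not tested.

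With the replicate number as a block, ABCB14 had -1.60 and -1.34, ABCB13 -1.72 and -1.57 and ABCB1 0.85 and 0.56, with no call changed among them, and DN13549_c0_g1_i1 lost its water deficit call (FDR 0.0199). Libraries with the same number had deviations correlated between -0.065 and 0.045 over 9 pairs, and those with different numbers between -0.073 and 0.144. The paper placed the treatments in randomized complete blocks. Whether the library numbers follow those blocks is not given, and these correlations, with so few libraries per group, cannot decide it. The block called 1114 transcripts for water deficit, 1173 for salt and 416 between the stresses.

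Changed transcripts numbered 1206 for water deficit (454 above a log2FC of 2, 645 with library totals, 789 without water deficit library 3), 1261 for salt (438 above 2) and 510 between the stresses (128 above 2, 322 with totals, 893 at an FDR of 0.05, 106 to 982 without 1 library). Other ABC transcripts changed under water deficit numbered 4, or 7 with no filter or without water deficit library 2, and 1 with totals or above 2. Under salt these were 9, 2 with totals and 1 above 2, and between the stresses 2, or 0 without salt library 1 or 2 or water deficit library 1.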
